A study of Homo sapiens with 9 samples.

Results

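The mitochondrial genome contributed 37 of the 58735 genes in the deposited count table, namely every row that the table places on chromosome MT of GRCh38. They are 13 mRNAs, 2 rRNAs and 22 tRNAs. The table puts 28 of them on the plus strand and 9 on the minus strand (MT-ND6 and 8 tRNAs). Transcripts were measured by RNA sequencing in U87, a human glioblastoma cell line, in 3 groups of 3 libraries. The C269S cells stably overexpressed isocitrate dehydrogenase 1 (IDH1) with the R132H mutation and a serine in place of a cysteine. The IDH1mt cells overexpressed the R132H mutant alone, and the PCDH cells carried the vector. The study asks what palmitoylation of the mutant enzyme by itself, a fatty acid modification, does to gene expression. No group overexpressed IDH1 without R132H, and all groups were grown in DMEM with serum. Not given in the sources used here are the vector's promoter, how many lines were selected per construct, and whether replicate libraries stem from separate cultures. Differences between groups therefore cannot be told apart from differences between selected lines or cultures, and the p-values rest on a spread between libraries that may be technical only.

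Human mitochondria keep a small circular genome that encodes core subunits of the respiratory chain and the RNAs needed to translate them. Both strands are transcribed by the mitochondrial RNA polymerase into long precursors that span many genes. The tRNAs punctuate these precursors, and their excision frees most of the mRNAs and rRNAs, so that the genes of a strand begin as parts of shared transcripts. Levels of the mature RNAs then depend also on processing, on polyadenylation and on stability, which the LRPPRC protein is known to support. All other components, including the polymerase, its cofactors and most respiratory chain subunits, are made from nuclear genes. Mutant IDH1 acts outside the mitochondrion, in the cytosol, where it makes hydroxyglutarate.

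The sequences of the members show the 2 strands and the tight packing of the genome, which bear on how the counts can be read. Taken from the GENCODE release 29 transcripts for GRCh38, whose lengths and coordinates matched the deposited table for all 37 genes, the first 60 bases of MT-CYB on the plus strand (MT, 14747 to 14806) and of MT-ND6 on the minus strand (MT, 14614 to 14673) are shown with G in capitals.
MT-CYB: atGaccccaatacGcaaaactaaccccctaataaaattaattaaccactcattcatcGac
MT-ND6: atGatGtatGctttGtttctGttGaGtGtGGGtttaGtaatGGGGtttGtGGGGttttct
G made up 35.6% of the bases of MT-ND6 and 12% of those of MT-CYB. It made up 6.3% to 16.2% of the bases of the plus-strand mRNAs. Neighbouring genes also share bases. The last 60 bases of MT-ATP8 (MT, 8513 to 8572, plus strand) hold the 46 bases, in capitals, that are also the start of MT-ATP6.
MT-ATP8: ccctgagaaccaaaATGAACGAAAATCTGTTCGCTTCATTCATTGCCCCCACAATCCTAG
MT-ND4L and MT-ND4 share 7 bases, and MT-ATP6 and MT-CO3 share 1. Of the 13 mRNA genes, 6 end in part of a codon, which polyadenylation is known to complete into a stop codon. The last 30 bases of MT-CYB (MT, 15858 to 15887) end in such a single T, in a capital.
MT-CYB: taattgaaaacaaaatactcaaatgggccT
Not given in the sources used here are how reads in a shared stretch were counted and whether counting used the strand.

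The labels and libraries were checked before the members were compared. Libraries held 19108925 to 24803711 counts in total, of which 626361 to 922125 came from the mitochondrial genome. IDH1 averaged 738.7 ± 30.3 CPM (counts scaled to library size) in C269S, 677 ± 16.5 CPM in IDH1mt and 110.6 ± 7.97 CPM in PCDH (SD, n = 3 each), which sets both mutants apart from PCDH. The C269S libraries lay above the IDH1mt libraries, by 0.13 on the log2 scale (edgeR adjusted p = 0.227). IDH1 levels cannot tell which mutant a library carries. Of 8 glioma and mesenchymal markers, VIM, CD44 and FN1 lay between 2619 and 14850 CPM in every library and NES between 56.6 and 74.5 CPM. The glial markers OLIG2, GFAP and S100B lay at 5.84 to 11.7, 2.84 to 4.34 and 0.0842 to 0.322 CPM, and SOX2 was at 0 in 7 of 9 libraries. On the second principal component of all tested genes, with 13.8% of the variance, PCDH replicate 3 lay at 31.3, apart from the other PCDH libraries at -24.9 and -17.1. All CPM values include TMM scaling factors, the trimmed mean of M values of edgeR.

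The mitochondrial genome gave a larger share of the counts in IDH1mt cells than in either other group. The share was 3.29, 3.18 and 3.34% in the C269S libraries, 3.78, 3.72 and 3.80% in the IDH1mt libraries, and 3.20, 2.92 and 3.35% in the PCDH libraries. Every IDH1mt library lay above every library of the other groups, while C269S and PCDH overlapped. The means were 3.27 ± 0.0838% in C269S, 3.77 ± 0.0437% in IDH1mt and 3.15 ± 0.220% in PCDH (SD, n = 3 each). The exact two-sided permutation p was 0.1 for IDH1mt against PCDH and for C269S against IDH1mt, the smallest that 3 against 3 libraries allow, and 0.7 for C269S against PCDH. A share of counts is relative: more mitochondrial RNA per cell, less nuclear RNA per cell and a different mix of cells in the culture cannot be told apart. Some markers differed between groups, but not all followed the share. In IDH1mt over PCDH, CD44 and FN1 rose by 0.33 and 0.22 on the log2 scale and VIM fell by 0.16 (edgeR adjusted p = 4.49e-06, 0.00194 and 0.0195). FN1 was highest in C269S, 0.23 above IDH1mt (adjusted p = 0.00393) and 0.45 above PCDH (adjusted p = 5.55e-07). CD44 was also 0.21 higher in C269S over PCDH (adjusted p = 0.0124), and VIM was 0.16 lower there (adjusted p = 0.0811). Of 3 neuron markers, SNAP25 rose by 0.26 in IDH1mt over PCDH (adjusted p = 0.0242), RBFOX3 stayed between 0.561 and 1.3 CPM, and the 3 summed to 61.4 to 69.8 CPM in C269S, 62.2 to 71.6 CPM in IDH1mt and 55 to 61.4 CPM in PCDH. The 3 markers each of leukocytes, endothelium and epithelium summed to at most 1.38, 9.33 and 1.77 CPM in any library, and none of the 4 with enough counts to be tested passed. The part of these markers in the share was not tested.

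**Figure D1:**
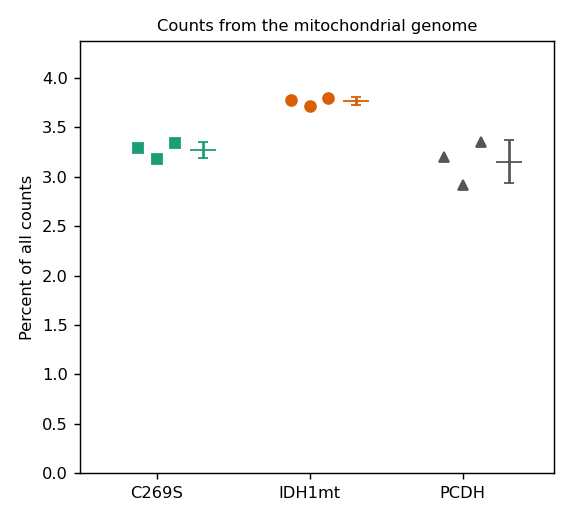
Percent of all counts that came from the 37 mitochondrial genes (vertical axis) in each library of C269S, IDH1mt and PCDH; points are libraries, and the bar beside them is the mean with its SD (n = 3). The IDH1mt libraries lie between 3.72 and 3.80%, above the 2.92 to 3.35% of all other libraries.

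By transcript, 25 of the 37 genes had enough counts to be tested, that is all 15 rRNAs and mRNAs and 10 of the 22 tRNAs. The tests were edgeR's quasi-likelihood tests fitted on all 16874 testable genes, with adjustment over all of them and a threshold of 0.05 on the adjusted p. Between IDH1mt and PCDH, 13 of the 25 rose in IDH1mt and 0 fell, against 7.18% of all tested genes higher and 6.9% lower. Between C269S and IDH1mt, 9 of the 25 fell in C269S and 0 rose, against 2.61% of all genes lower and 2.29% higher. Between C269S and PCDH, 1 of the 25 rose in C269S and 0 fell, against 0.883% higher and 0.533% lower over all genes. The median log2 fold change of the 25 was 0.34 for IDH1mt against PCDH, -0.27 for C269S against IDH1mt and 0.09 for C269S against PCDH, where the medians over all genes were -0.01, 0.00 and -0.01. Without IDH1mt replicates 1 or 3, 5 transcripts fell in C269S against IDH1mt, where 261 of 17153 and 266 of 17433 genes were called lower. In C269S over PCDH, 0 rose without C269S replicates 1 or 3 or PCDH replicates 1 or 2. Over all genes, these fits in turn called 65 of 17454, 155 of 17260, 85 of 17400 and 92 of 17168 higher. Without PCDH replicate 3, 4 transcripts rose, in a fit in which 3.19% of all genes were called higher. In that fit 14 transcripts rose in IDH1mt over PCDH (9.17% of all genes higher) and 13 fell in C269S against IDH1mt (3.7% of all genes lower). In the directions with 0 calls by edgeR, 0 transcripts had an unadjusted p under 0.05 and DESeq2 also called 0. Any 2 of these comparisons share the libraries of a group. The transcripts share their libraries and precursors as well, so the counts are not counts of independent events.

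**Figure D2:**
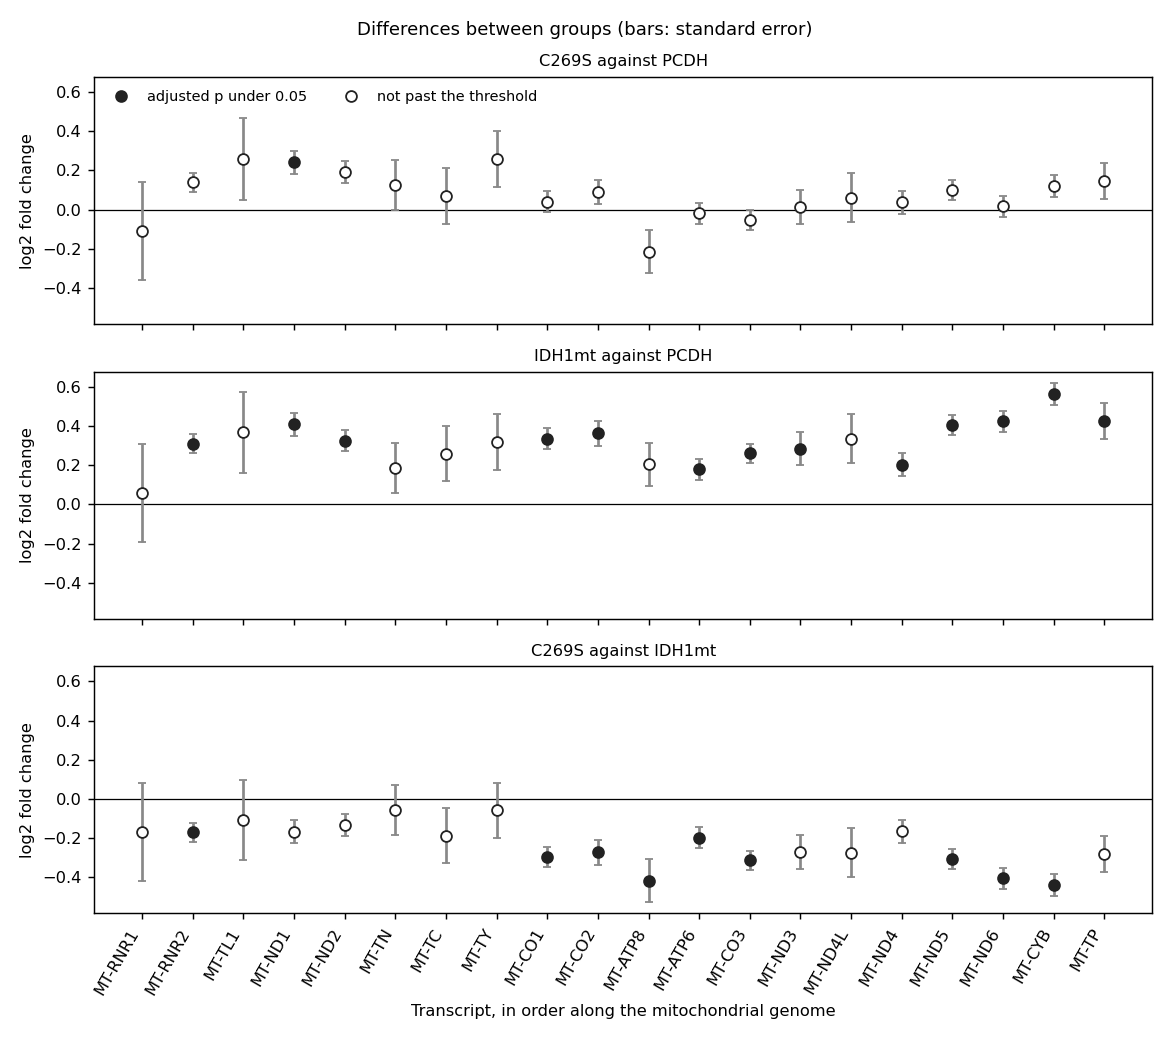
The log2 fold change (vertical axis) of each of 20 mitochondrial transcripts with a mean of at least 1.5 CPM, in genome order, for C269S against PCDH (top), IDH1mt against PCDH (middle) and C269S against IDH1mt (bottom); bars are standard errors, and filled points have an adjusted p under 0.05. All 20 points of the middle panel lie above 0, with MT-CYB highest at 0.56, and all 20 of the bottom panel lie below 0. The other 5 tested tRNAs are not drawn.

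Levels of different transcripts were compared as FPKM, the deposited values per length. MT-RNR2, MT-CO1 and MT-CO2 stood highest, with MT-CO1 at 4851 ± 174 FPKM in C269S, 5954 ± 212 FPKM in IDH1mt and 4701 ± 406 FPKM in PCDH (SD, n = 3 each). By mean FPKM, MT-CO1 ranked 2 in C269S, 2 in IDH1mt and 1 in PCDH among all genes of the table, and 6 of the 15 rRNAs and mRNAs were among the 10 highest genes in each group. MT-CYB stood near the low end of the mRNAs, at 494.7 ± 16.9 FPKM in C269S, 671.8 ± 26.1 FPKM in IDH1mt and 453.2 ± 36.5 FPKM in PCDH. MT-ATP8 was the lowest of the 15, at 149.7 ± 12.3, 200.1 ± 16.4 and 172.9 ± 36 FPKM in C269S, IDH1mt and PCDH. MT-ND6, the one mRNA of the minus strand, stood at 589 ± 14.2 FPKM in C269S, 780.2 ± 16.1 FPKM in IDH1mt and 579.7 ± 28.2 FPKM in PCDH, close to its plus-strand neighbour MT-ND5 at 613.9 ± 10.2, 759.2 ± 14.1 and 571.1 ± 37.8 FPKM. Without a stated strand setting, counts at MT-ND6 here and below cannot be told apart from plus-strand RNA at the same place.

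**Figure D3:**
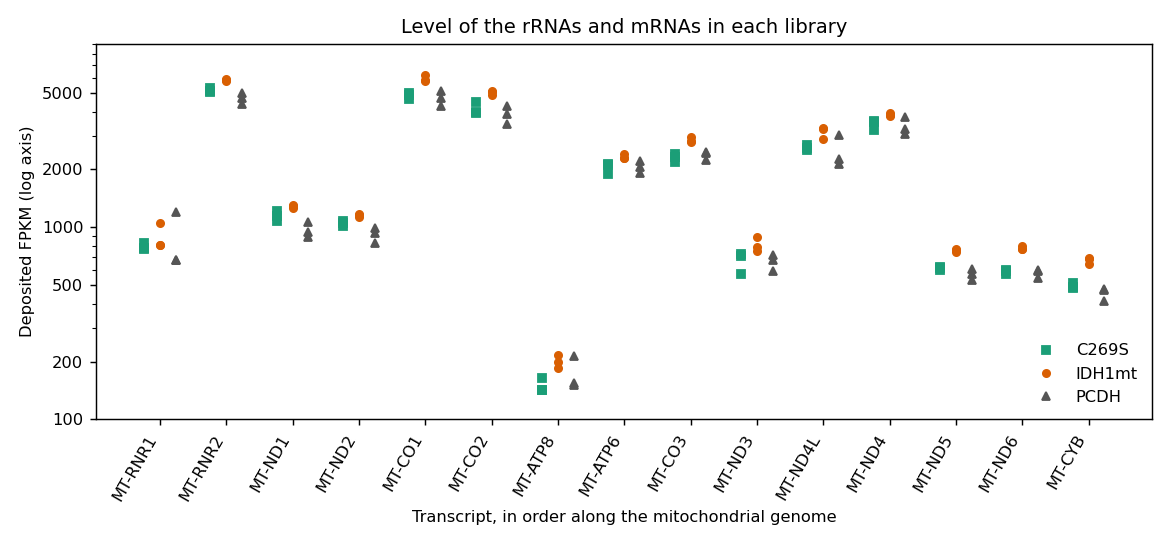
Deposited FPKM (vertical axis, log scale) of the 15 mitochondrial rRNAs and mRNAs in genome order, 1 point per library, with C269S, IDH1mt and PCDH from left to right at each transcript. MT-RNR2 and MT-CO1 stand between 4283 and 6198 FPKM and MT-ATP8 under 220 FPKM, and the PCDH library at 1195 FPKM stands apart for MT-RNR1.

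Of the rRNAs, which form the core of the mitochondrial ribosome, MT-RNR2 rose in IDH1mt and MT-RNR1 did not pass the test. MT-RNR2, the 16S rRNA of the large subunit (ENSG00000210082, MT, 1671 to 3229, plus strand), had 7971, 8070 and 8365 CPM in C269S, 9200, 9227 and 9021 CPM in IDH1mt, and 7395, 6852 and 7891 CPM in PCDH. No groups overlapped. Relative to PCDH it rose 1.24-fold in IDH1mt, by 0.31 on the log2 scale (SE 0.05, adjusted p = 2.29e-05). It fell by 0.17 on the log2 scale in C269S against IDH1mt (SE 0.05, adjusted p = 0.0353), a call lost without any 1 of 5 libraries, with adjusted p between 0.105 without IDH1mt replicate 3 and 0.169 without C269S replicate 1. The C269S libraries were above the PCDH libraries by 0.14 (adjusted p = 0.166, and 0.00763 without PCDH replicate 3). MT-RNR1, the 12S rRNA of the small subunit (ENSG00000211459, MT, 648 to 1601), had 737, 795 and 746 CPM in C269S, 772, 1004 and 779.8 CPM in IDH1mt, and 1154, 650 and 650.5 CPM in PCDH. PCDH replicate 1 therefore held the highest MT-RNR1 level of all libraries, and the log2 difference of 0.06 between IDH1mt and PCDH had an SE of 0.25. Without that library the difference was 0.39 with an adjusted p of 0.0093. Per 100 counts of MT-RNR2, MT-RNR1 gave 15.6 in PCDH replicate 1 and 8.24 to 10.9 in the other 8 libraries. Both rRNAs lie on the plus strand with only MT-TV between them.

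Complex I, the entry point for electrons from NADH, has 7 subunits encoded here, and 6 of them rose in IDH1mt over PCDH while MT-ND4L did not pass. MT-ND1 (ENSG00000198888, MT, 3307 to 4262), part of the membrane arm near the quinone site, had 1101, 1039 and 1169 CPM in C269S, 1245, 1213 and 1255 CPM in IDH1mt, and 917, 854 and 1028 CPM in PCDH. The groups did not overlap, and its level in IDH1mt rose to 1.33 times that in PCDH (log2 fold change 0.41, SE 0.06, adjusted p = 4.74e-06). It was also the one transcript to rise in C269S over PCDH in this edgeR fit, 1.18-fold (log2 fold change 0.24, SE 0.06, adjusted p = 0.0222). That call was lost without C269S replicate 1, C269S replicate 3, PCDH replicate 1 or PCDH replicate 2 (adjusted p = 0.105, 0.083, 0.11 and 0.19), whereas it held without PCDH replicate 3. Between C269S and IDH1mt its log2 difference was -0.17 (adjusted p = 0.101, and 0.0403 without C269S replicate 3 or 0.0163 without PCDH replicate 3).

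MT-ND2 (ENSG00000198763, MT, 4470 to 5511), a proton-pumping subunit, had 1109, 1070 and 1126 CPM in C269S, 1229, 1183 and 1211 CPM in IDH1mt, and 980.1, 867 and 1044 CPM in PCDH. All 3 groups lay apart, and the rise in IDH1mt was 0.33 on the log2 scale (SE 0.06, adjusted p = 7.9e-05). In C269S it stood 0.19 above PCDH on the log2 scale (SE 0.06, adjusted p = 0.0785). That difference passed with DESeq2 (adjusted p = 0.0469), without a low-count filter (0.0321) and without PCDH replicate 3 (0.00116). MT-ND1 and MT-ND2 thus had every C269S library between those of the other groups, as had MT-RNR2 and, at the far end of the mRNA genes, MT-CYB.

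For MT-ND5 and MT-ND6 the C269S and PCDH libraries overlapped. MT-ND5 (ENSG00000198786, MT, 12337 to 14148), another proton-pumping subunit, had 1100, 1134 and 1124 CPM in C269S, 1358, 1382 and 1410 CPM in IDH1mt, and 1052, 972 and 1109 CPM in PCDH. MT-ND5 rose by 0.41 on the log2 scale in IDH1mt (SE 0.05, adjusted p = 6.32e-07) and fell by 0.31 in C269S against IDH1mt (SE 0.05, adjusted p = 0.000142). MT-ND6 (ENSG00000198695, MT, 14149 to 14673, minus strand), a membrane-arm subunit, had 312, 318 and 303 CPM in C269S, 406, 408 and 422 CPM in IDH1mt, and 316, 289.6 and 316 CPM in PCDH. The IDH1mt libraries stood clear of the others. MT-ND6 in IDH1mt rose to 1.34 times its PCDH level (log2 fold change 0.42, SE 0.05, adjusted p = 6.56e-07) and fell by 0.40 in C269S against IDH1mt (SE 0.05, adjusted p = 3.36e-06). Its log2 difference between C269S and PCDH was 0.02, with a 95% interval from -0.09 to 0.13.

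The remaining complex I subunits moved less or varied more. MT-ND4 (ENSG00000198886, MT, 10760 to 12137) had 4903, 4466 and 4964 CPM in C269S, 5286, 5307 and 5476 CPM in IDH1mt, and 4529, 4226 and 5213 CPM in PCDH. It rose by 0.20 in IDH1mt (SE 0.06, adjusted p = 0.0191), a call lost without IDH1mt replicate 3, PCDH replicate 1 or PCDH replicate 2 (adjusted p = 0.0916, 0.0832 and 0.139). MT-ND4L (ENSG00000212907, MT, 10470 to 10766), which overlaps it, had 756, 797 and 773 CPM in C269S, 978, 861 and 974 CPM in IDH1mt, and 639, 682 and 908 CPM in PCDH. PCDH replicate 3 reached into the IDH1mt range, and the log2 difference of 0.34 did not pass (SE 0.12, adjusted p = 0.128, and 2.4e-10 without that library). With all libraries it did pass without a low-count filter (adjusted p = 4.27e-05) and with the replicate block (0.00886). Without PCDH replicate 3, MT-ND4L also passed in C269S over PCDH (log2 fold change 0.23, adjusted p = 0.00519) and in C269S below IDH1mt (log2 fold change -0.27, adjusted p = 4.9e-05). MT-ND3 (ENSG00000198840, MT, 10059 to 10404) had 200, 253 and 248 CPM in C269S, 309, 262 and 274 CPM in IDH1mt, and 208, 249.8 and 235 CPM in PCDH. It rose by 0.28 in IDH1mt (SE 0.09, adjusted p = 0.0347), and the adjusted p lay between 0.0583 without IDH1mt replicate 3 and 0.216 without PCDH replicate 3 in the 5 of 9 fits without 1 library that lost the call. Between C269S and IDH1mt, of the complex I subunits MT-ND5 and MT-ND6 passed in this edgeR fit. MT-ND3 had a log2 difference of -0.27 there (adjusted p = 0.0911), which passed without a low-count filter (adjusted p = 0.00166), with DESeq2 (0.0308), without C269S replicate 2 (0.0469) and without PCDH replicate 1 (0.0446). MT-ND4L, at an adjusted p of 0.326 with all libraries, also passed without a low-count filter (adjusted p = 0.00419). With the 6 libraries of both groups alone, MT-ND1, MT-ND4 and MT-ND4L passed (adjusted p = 0.0158, 0.0109 and 7.29e-05), and MT-ND4 passed without PCDH replicate 3 (0.011).

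MT-CYB, cytochrome b and the one subunit of complex III made in the mitochondrion (ENSG00000198727, MT, 14747 to 15887, plus strand), differed most among the rRNAs and mRNAs in both comparisons with IDH1mt. It had 561, 553 and 589.8 CPM in C269S, 786, 736 and 791 CPM in IDH1mt, and 544, 473 and 548 CPM in PCDH. Every IDH1mt library stood above every other library, and the lowest of them, at 736 CPM, was well above the highest of the others at 589.8 CPM. The rise in IDH1mt was 0.56 on the log2 scale (SE 0.06, adjusted p = 8.56e-09), and MT-CYB fell by 0.44 in C269S against IDH1mt (SE 0.06, adjusted p = 2.04e-06). In C269S the libraries lay just above those of PCDH, with a log2 difference of 0.12 (SE 0.06, 95% interval 0.01 to 0.24) that did not pass (adjusted p = 0.38).

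All 3 subunits of complex IV, cytochrome c oxidase, rose in IDH1mt over PCDH and fell in C269S against IDH1mt. MT-CO1, the subunit with the oxygen-binding site (ENSG00000198804, MT, 5904 to 7445), had 7793, 7241 and 7543 CPM in C269S, 9088, 8996 and 9615 CPM in IDH1mt, and 7376, 6659 and 7913 CPM in PCDH. It rose by 0.34 in IDH1mt (SE 0.05, adjusted p = 2.31e-05) and fell by 0.29 in C269S against IDH1mt (SE 0.05, adjusted p = 0.000336). MT-CO2, which receives electrons from cytochrome c (ENSG00000198712, MT, 7586 to 8269), had 2722, 2733 and 3106 CPM in C269S, 3511, 3364 and 3466 CPM in IDH1mt, and 2699, 2382 and 2964 CPM in PCDH. C269S and PCDH overlapped for both genes, and IDH1mt stood above them. MT-CO2 rose by 0.36 in IDH1mt (SE 0.06, adjusted p = 0.00024) and fell by 0.27 in C269S against IDH1mt (SE 0.06, adjusted p = 0.00996). That fall was lost without C269S replicates 1 or 2 or IDH1mt replicates 1 or 3, with adjusted p between 0.0501 and 0.0758. MT-CO3 (ENSG00000198938, MT, 9207 to 9990) had 1825, 1728 and 1890 CPM in C269S, 2227, 2197 and 2340 CPM in IDH1mt, and 1956, 1778 and 1917 CPM in PCDH. It rose by 0.26 in IDH1mt (SE 0.05, adjusted p = 0.000441) and fell by 0.31 in C269S against IDH1mt (SE 0.05, adjusted p = 9.33e-05). The log2 differences of the complex IV subunits between C269S and PCDH lay between -0.05 and 0.09, and none passed.

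Of the 2 subunits of complex V, the ATP synthase, MT-ATP6 rose in IDH1mt and both fell in C269S against IDH1mt. MT-ATP6, part of its proton channel (ENSG00000198899, MT, 8527 to 9207), had 1439, 1301 and 1454 CPM in C269S, 1577, 1579 and 1653 CPM in IDH1mt, and 1413, 1320 and 1518 CPM in PCDH. Its rise by 0.18 in IDH1mt (SE 0.05, adjusted p = 0.025) was the smallest among the called mRNAs, and was lost without any 1 library of IDH1mt or without PCDH replicates 1 or 2 (adjusted p between 0.0559 and 0.163). Its fall by 0.20 in C269S against IDH1mt (SE 0.05, adjusted p = 0.0284) was lost without any 1 IDH1mt library or C269S replicates 1 or 2 (adjusted p between 0.0593 and 0.232). MT-ATP8 (ENSG00000228253, MT, 8366 to 8572), a small accessory subunit, had 34.1, 29.7 and 29.6 CPM in C269S, 41.4, 38.4 and 45.2 CPM in IDH1mt, and 32.3, 31.3 and 44.7 CPM in PCDH. PCDH replicate 3 reached into the IDH1mt range again. MT-ATP8 fell by 0.42 in C269S against IDH1mt (SE 0.11, adjusted p = 0.0245), and did not pass in IDH1mt over PCDH (log2 difference 0.20, SE 0.11, adjusted p = 0.237, and 0.00138 without PCDH replicate 3). The fall was lost without C269S replicates 2 or 3 or IDH1mt replicates 1 or 3 (adjusted p between 0.0799 and 0.143). Per 100 counts of MT-ATP6, with which it is known to share a bicistronic mRNA, MT-ATP8 gave 2.23 in C269S, 2.6 in IDH1mt and 2.54 in PCDH (means of 3). The C269S and IDH1mt libraries did not overlap in this ratio (exact two-sided permutation p = 0.1).

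The tRNAs, which carry amino acids to the mitochondrial ribosome, were counted very unevenly, and the well-counted ones lie on the minus strand. MT-TC, MT-TN, MT-TP and MT-TY, for cysteine, asparagine, proline and tyrosine, gave 94.5% of all tRNA counts. Their whole sequences follow as the genes read, without the terminal CCA that is added later, with the anticodon in capitals. They lie on the minus strand of MT at 5761 to 5826, 5657 to 5729, 15956 to 16023 and 5826 to 5891 in the order given, and MT-TC and MT-TY share 1 base.
MT-TC: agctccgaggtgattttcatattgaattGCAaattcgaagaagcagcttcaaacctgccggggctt
MT-TN: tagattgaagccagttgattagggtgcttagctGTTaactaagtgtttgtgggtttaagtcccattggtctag
MT-TP: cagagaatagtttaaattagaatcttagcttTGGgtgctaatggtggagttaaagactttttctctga
MT-TY: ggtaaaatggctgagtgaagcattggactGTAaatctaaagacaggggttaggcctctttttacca
MT-TC had 1340, 1852 and 2061 counts in C269S, 2520, 2266 and 1741 counts in IDH1mt, and 1614, 2265 and 1573 counts in PCDH. The other 4 minus-strand tRNAs had 0 to 14 counts in any library, and the 14 plus-strand tRNAs at most 122, the most belonging to MT-TL1 for leucine. No plus-strand gene lies opposite the 4 well-counted ones, but none lies opposite the little-counted MT-TA, MT-TS1 and MT-TE either. Without a stated strand setting, the counts of the 4 cannot be told apart from RNA of the other strand at the same places. Not given in the sources used here is how RNA was selected and sized for the libraries.

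**Figure D4:**
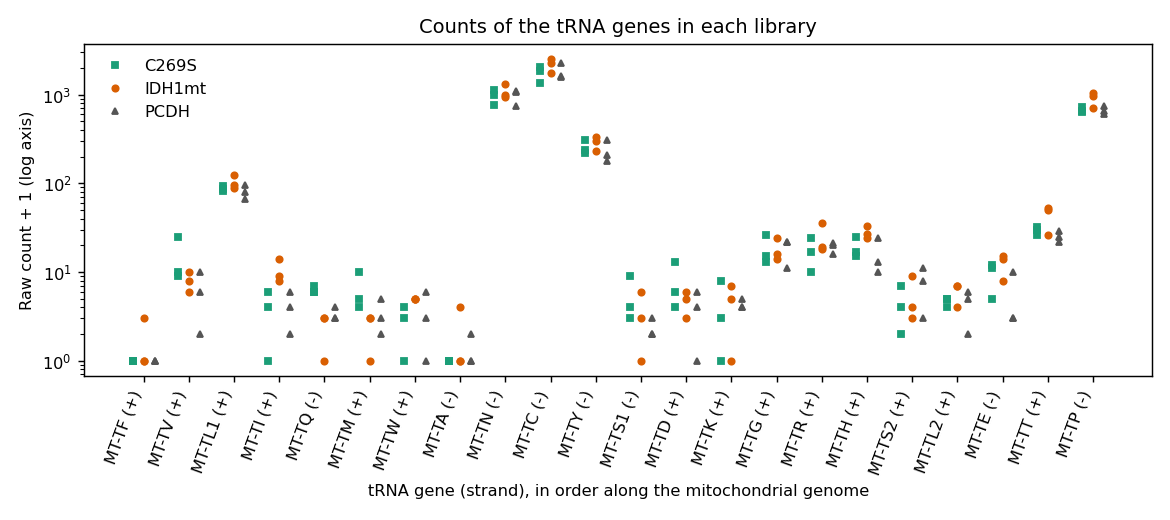
Raw count plus 1 (vertical axis, log scale) of each of the 22 mitochondrial tRNA genes in genome order, with the strand in brackets, 1 point per library and C269S, IDH1mt and PCDH from left to right. MT-TN, MT-TC, MT-TY and MT-TP stand far above the rest, and most other tRNAs have under 30 counts.

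Of the 10 tRNAs tested, MT-TP alone rose in IDH1mt over PCDH in this edgeR fit, and none fell there. Of all genes, 7.18% were higher and 6.9% lower in that comparison, so these counts lie near the shares. None of the 10 passed in the other comparisons. There, 2.29% of all genes were higher and 2.61% lower in C269S against IDH1mt, and 0.883% and 0.533% in C269S against PCDH. MT-TP (ENSG00000210196) had 37.2, 32.7 and 30.3 CPM in C269S, 40.2, 43.4 and 37.9 CPM in IDH1mt, and 29.6, 27.5 and 33.4 CPM in PCDH. The IDH1mt libraries stood above all others, and MT-TP rose 1.34-fold over PCDH (log2 fold change 0.43, SE 0.09, adjusted p = 0.00135). In C269S it stood 0.28 below IDH1mt on the log2 scale (SE 0.09, adjusted p = 0.0765, and 0.0222 without PCDH replicate 3). MT-TC averaged 85.6 ± 14.9 CPM in C269S, 97.5 ± 7.36 CPM in IDH1mt and 81.5 ± 13.0 CPM in PCDH, and MT-TN averaged 47.1 ± 6.72, 49.1 ± 7.51 and 43.1 ± 6.19 CPM in the same groups. The groups of both overlapped, with log2 differences of 0.26 and 0.19 between IDH1mt and PCDH that did not pass. For MT-TC the adjusted p was 0.289, and 0.0126 without a low-count filter, 0.0404 without PCDH replicate 2 and 0.0485 without C269S replicate 1. MT-TY averaged 12.4 ± 1.48 CPM in C269S, 12.9 ± 0.585 CPM in IDH1mt and 10.3 ± 2.48 CPM in PCDH (adjusted p = 0.151 for IDH1mt against PCDH, and 0.0264 without PCDH replicate 2). MT-TL1 and MT-TT stood at 4.27 ± 0.470 and 1.39 ± 0.101 CPM in C269S, 4.62 ± 0.861 and 1.85 ± 0.441 CPM in IDH1mt, and 3.57 ± 0.563 and 1.10 ± 0.144 CPM in PCDH. Their log2 differences in IDH1mt over PCDH were 0.37 and 0.76 (SE 0.21 and 0.33, adjusted p = 0.267 and 0.131). Both limma fits called MT-TT there (adjusted p = 0.0291 and 0.0316). MT-TG, MT-TR, MT-TH and MT-TE averaged between 0.189 and 1.22 CPM in each group, so that their log2 differences, up to 1.40 for MT-TE, had SEs of 0.43 to 0.72. The 12 tRNAs that were not tested had 0 to 24 counts in any library. MT-TF had 2 counts in all, in 1 IDH1mt library, and MT-TA had 4, and both were at 0 in C269S, where a count of 0 allows up to 3 counts, or 0.138 to 0.153 CPM per library (counting error only).

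Set against the mitochondrial total in place of all counts, most of the differences between groups shrank. The rRNAs gave 27.2 ± 0.677% of mitochondrial counts in C269S, 26.1 ± 0.891% in IDH1mt and 26.4 ± 0.864% in PCDH (SD, n = 3 each), and the libraries overlapped. Minus-strand genes gave 1.5 ± 0.0846%, 1.60 ± 0.0252% and 1.53 ± 0.118% in C269S, IDH1mt and PCDH, and tRNAs gave 0.580 ± 0.0586%, 0.552 ± 0.0343% and 0.563 ± 0.0895%. For none of these shares did any pair of groups separate, and exact two-sided permutation p lay between 0.2 and 1.0. For the shares of MT-CYB and MT-ND6, IDH1mt separated from both other groups. MT-CYB gave 1.71, 1.74 and 1.75% of mitochondrial counts in C269S, 2.06, 1.94 and 2.03% in IDH1mt, and 1.73, 1.66 and 1.64% in PCDH. With each library scaled to its mitochondrial total in the same edgeR fit, MT-CYB was the one member called. It stood 0.26 higher in IDH1mt over PCDH, less than the 0.56 against all counts (SE 0.07, adjusted p = 0.00186), where 1.85% of all genes were called higher, and 0.21 lower in C269S against IDH1mt (SE 0.07, adjusted p = 0.0182), where 0.859% were called lower. That scaling moves the median of all genes to -0.32 and 0.23 in these comparisons, so it describes the mitochondrial transcripts relative to each other only.

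MT-ND6 came next, with 0.954, 1.0 and 0.901% of mitochondrial counts in C269S, 1.06, 1.07 and 1.08% in IDH1mt, and 1.01, 1.02 and 0.945% in PCDH. The IDH1mt libraries lay above the rest (exact two-sided permutation p = 0.1 against each group, the smallest possible). Relative to the mitochondrial total, its log2 difference of 0.12 in IDH1mt over PCDH (adjusted p = 0.174) and of -0.17 in C269S against IDH1mt (adjusted p = 0.0629) did not pass. At the other end, MT-ATP6, MT-ND4 and MT-CO3, which rose in IDH1mt against all counts, had log2 differences of -0.13, -0.10 and -0.05 relative to the mitochondrial total. Their share of mitochondrial RNA was thus not higher in IDH1mt, and none of these differences passed.

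**Figure D5:**
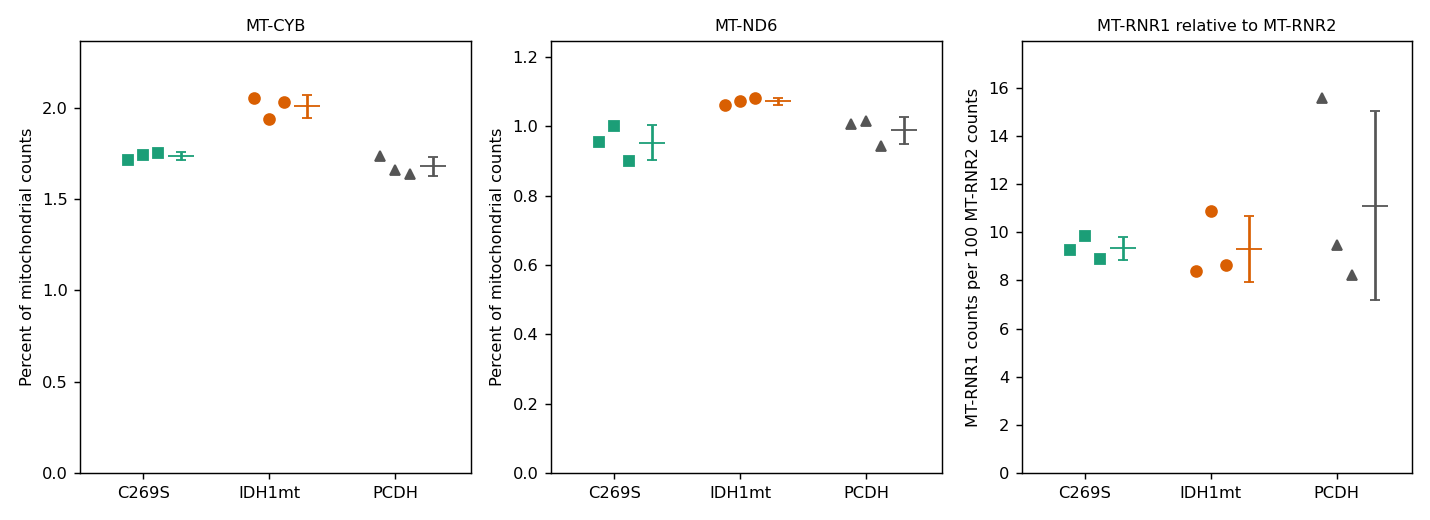
Percent of mitochondrial counts from MT-CYB (left) and MT-ND6 (middle), and MT-RNR1 counts per 100 MT-RNR2 counts (right), in each library of C269S, IDH1mt and PCDH; points are libraries and bars the mean with its SD (n = 3). The IDH1mt libraries lie above all others for MT-CYB (1.94 to 2.06%) and MT-ND6, and 1 PCDH library stands at 15.6 in the right panel.

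In genome order, the last 3 mRNA genes, MT-ND5, MT-ND6 and MT-CYB, had log2 fold changes of 0.41, 0.42 and 0.56 in IDH1mt over PCDH, while MT-ATP8, MT-ATP6, MT-CO3, MT-ND3, MT-ND4L and MT-ND4 before them had 0.20, 0.18, 0.26, 0.28, 0.34 and 0.20. MT-ND1, MT-ND2, MT-CO1 and MT-CO2, farther forward, had 0.41, 0.33, 0.34 and 0.36. The course was thus not a steady one. Over the 15 rRNAs and mRNAs, the log2 fold change against the start of the gene had a Pearson r of 0.5 and a Spearman rho of 0.37 for IDH1mt against PCDH, -0.71 and -0.59 for C269S against IDH1mt, and -0.09 and -0.09 for C269S against PCDH. The 15 points share their libraries and come from shared precursors, so these values describe the pattern only. By the strand of the gene, 2 of 6 tested minus-strand genes (MT-ND6 and MT-TP) and 11 of 19 plus-strand genes rose in IDH1mt, with median log2 fold changes of 0.37 and 0.34. Without a stated strand setting, counts at minus-strand genes cannot be told apart from plus-strand RNA at the same places. The split therefore sorts genes, not RNA by strand.

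Nuclear copies of mitochondrial genes can take up reads of the originals. The table holds 407 such genes by symbol, of which 350 had 0 counts in all libraries and 4 could be tested. All together they held 21614 counts, or 0.326% of the 6624889 counts of the mitochondrial genome. MTND2P28 on chromosome 1 (629640 to 630683), 98.4% identical to MT-ND2, had 721, 810 and 889 counts in C269S, 1153, 925 and 881 counts in IDH1mt, and 676, 827 and 893 counts in PCDH. It rose in IDH1mt by 0.31 on the log2 scale (SE 0.09, adjusted p = 0.02), beside 0.33 for MT-ND2 itself. MTATP6P1 and MTCO1P12, 98.5% and 98.6% identical to their originals, had log2 differences of 0.21 and 0.17 there, and MTRNR2L8, 93.0% identical to MT-RNR2, had 0.65, and none of them passed. At such identity, reads of a copy and of its original may be exchanged, and whether they were was not tested.

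Nuclear genes that serve the mitochondrial genome were tested in the same fit. Of 18 genes of mitochondrial transcription and the nucleoid, 0 rose and 2 fell in IDH1mt over PCDH, where 7.18% of all genes were higher and 6.9% lower, so the falls lie near that share. None had an unadjusted p under 0.05 upward, and DESeq2 called 0 higher too. POLRMT, the mitochondrial RNA polymerase, had 124, 111 and 129 CPM in C269S, 112, 109 and 118 CPM in IDH1mt, and 132, 135 and 127 CPM in PCDH. It fell by 0.22 on the log2 scale in IDH1mt (SE 0.06, adjusted p = 0.0191). TOP1MT, the mitochondrial topoisomerase, fell by 0.36 (SE 0.12, adjusted p = 0.0369), to 10.9 ± 1.06 CPM in IDH1mt against 14 ± 0.394 CPM in PCDH. TFAM, which packages the genome and starts its transcription, averaged 26.4 ± 0.841 CPM in C269S, 24.5 ± 1.70 CPM in IDH1mt and 25.9 ± 1.05 CPM in PCDH (SD, n = 3 each). TFB2M, a cofactor of the polymerase, averaged 15.3 ± 0.558, 14.6 ± 1.35 and 14.3 ± 2.57 CPM in these groups. Neither passed in any comparison. The median of the 18 was -0.06 for IDH1mt against PCDH. Whether the lower POLRMT RNA bears on the levels of the mitochondrial transcripts was not tested. Of the 2 falls, 0 were called without IDH1mt replicate 2, PCDH replicate 1 or PCDH replicate 2, and 1 without IDH1mt replicates 1 or 3. Over all genes, these fits in turn called 745 of 17113, 815 of 17400, 826 of 17168, 747 of 17153 and 767 of 17433 lower. Both limma fits called 0, beside 742 and 733 of all 16874 genes lower, and 1 was called with the replicate block, beside 944.

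Of 33 genes of mitochondrial RNA processing and decay, 1 rose and 1 fell in IDH1mt over PCDH, with a median of -0.03, where 7.18% of all genes were higher and 6.9% lower. GRSF1, which binds RNA in mitochondrial RNA granules, rose by 0.23 (SE 0.07, adjusted p = 0.0216), to 99.2 ± 3.63 CPM in IDH1mt against 84.7 ± 6.49 CPM in PCDH. ERAL1, a chaperone of the 12S rRNA, fell by 0.23 (SE 0.08, adjusted p = 0.0498). LRPPRC, which stabilises the mRNAs, averaged 122.8 ± 9.40 CPM in C269S, 126.9 ± 3.43 CPM in IDH1mt and 111 ± 10.5 CPM in PCDH, a log2 difference of 0.19 for IDH1mt against PCDH that did not pass (SE 0.07, adjusted p = 0.0592). Of 17 regulators of mitochondrial gene programmes, NRIP1, a corepressor, and MYC rose in IDH1mt by 0.25 and 0.22 (adjusted p = 0.033 and 0.0425), and 0 of the 17 were called with library size alone or the replicate block. PPARGC1A, a coactivator of mitochondrial biogenesis, rose by 0.56 in C269S over PCDH (SE 0.14, adjusted p = 0.0405), to 12.7 ± 1.71 CPM in C269S against 8.55 ± 1.63 CPM in PCDH, the 1 call among the 17 where 0.883% of all genes were higher. The call for PPARGC1A was lost without any 1 of C269S replicates 1 and 2, IDH1mt replicates 1 and 3, or PCDH replicates 1 and 2, and also with the replicate block, library size alone, either limma fit and the 6 libraries alone. For IDH1mt against PCDH, the processing genes had 0 rises without IDH1mt replicates 1 or 3 or PCDH replicates 1 or 2. Over all genes, these fits in turn called 890 of 17153, 860 of 17433, 927 of 17400 and 917 of 17168 higher. The processing genes had 4 falls without PCDH replicate 3, a fit in which 8.58% of all genes were called lower. The fall of ERAL1 was called only with all libraries or without PCDH replicate 3 among these fits. The regulators had 0 rises without any 1 IDH1mt library or PCDH replicate 1. Of these fits, the one without IDH1mt replicate 2 called 872 of 17113 genes higher.

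Respiratory chain subunits made in the nucleus offer the closest comparison with the mitochondrial mRNAs. Of 72 such genes, 2 rose and 1 fell in IDH1mt over PCDH, both below the 7.18% and 6.9% of all genes called higher and lower. Their median was -0.01, where 11 of the 13 mitochondrial mRNAs rose with a median of 0.34. COX7B of complex IV rose by 0.32 (SE 0.07, adjusted p = 0.00216), with 65.2, 70.6 and 66.2 CPM in C269S, 80.5, 74.6 and 81.4 CPM in IDH1mt, and 60.2, 61.0 and 68.6 CPM in PCDH. ATP5F1A, the catalytic-head alpha subunit of complex V, rose by 0.17 (SE 0.05, adjusted p = 0.0287), and NDUFS5 of complex I fell by 0.30 (SE 0.07, adjusted p = 0.00542), to 64.2 ± 3.07 CPM in IDH1mt against 78.9 ± 3.5 CPM in PCDH. Between C269S and IDH1mt, 0 of the 72 passed in either direction, with a median of -0.03. Of all genes, 2.29% were called higher and 2.61% lower, so 0 calls among 72 lie near these shares. Of the 13 mitochondrial mRNAs, 8 fell in this comparison, with a median of -0.27. At an unadjusted p under 0.05, 0 of the 72 were higher and 8 lower there. DESeq2 called 4 of them lower, beside 517 of all 16874 genes, and the 6 libraries alone gave 5, beside 647 of 16100. Between C269S and PCDH none of the 72 passed with edgeR or DESeq2, where edgeR called 0.883% of all genes higher and 0.533% lower. The median of the 72 was -0.06, with 0 higher and 10 lower at an unadjusted p under 0.05. The share of all genes at that unadjusted threshold was not computed, so the 8 and the 10 cannot be set against a background. Without PCDH replicate 3, 7 of them fell in C269S and 10 fell in IDH1mt over PCDH, in fits where 2.07% and 8.58% of all genes were called lower. The rises in IDH1mt numbered 1 without any 1 IDH1mt library or without PCDH replicates 1 or 2. Over all genes, these fits in turn called 890 of 17153, 872 of 17113, 860 of 17433, 927 of 17400 and 917 of 17168 higher.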

How the data were processed

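RNA was measured in 9 libraries, 3 per group, with groups taken from the sample titles. The authors deposited whole-number read counts per gene and a table of FPKM values. Per the submitters' processing notes, HISAT2 2.0.5, featureCounts 1.5.0-p3 and the builds GRCh38 and hg38 were used. Each FPKM deposited equals the count per length and per library total, times 1 factor per library (0.969 to 1.02). The table's columns named CS, mt and Control hold C269S, IDH1mt and PCDH, a match that rests on their names alone.

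Counts were tested with edgeR 4.0.16 under R 4.3.3 (TMM, filterByExpr, robust quasi-likelihood fit of all 9 libraries, Benjamini-Hochberg over 16874 genes, threshold 0.05), after tests on simulated data. SEs are the absolute log2 fold change over the square root of F. With no more than 3 libraries per group, shares per library were compared by exact two-sided permutation, and counting error is small beside library spread for all but the tRNAs. Alternatives were other scalings and filters, DESeq2 1.42.0, limma 3.58.1 on log2 FPKM plus 1 or 0.1, 6 libraries alone, a replicate block, and each library left out. Identity of nuclear copies came from BLAST on GENCODE transcripts. Named were all mitochondrial genes tested, TFAM, POLRMT, TFB2M, LRPPRC, and list members with the lowest adjusted p. The members and lists were chosen with earlier results of these data known.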

Additional observations from a re-analysis of the deposited data

How the results depend on the processing

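Of 75 comparisons of a transcript between 2 groups, 23 were called and 38 were called in no fit. In IDH1mt over PCDH, 13 transcripts were called higher, 11 to 15 in other fits and 10 to 14 without 1 library. MT-RNR2, MT-CO1, MT-CO2, MT-CO3, MT-ND1, MT-ND2, MT-ND5, MT-ND6, MT-CYB and MT-TP kept their call in all 19 alternatives other than scaling to the mitochondrial total. In C269S over PCDH, 1 was called, 2 without a low-count filter and with DESeq2, 0 with either limma fit and with the 6 libraries alone, and 0 to 4 without 1 library. In C269S below IDH1mt, 9 were called, 5 with either limma fit and 5 to 13 without 1 library, and the calls of MT-CO1, MT-CO3, MT-ND5, MT-ND6 and MT-CYB held in the same 19. In those 3 comparisons the replicate numbers did not pair the samples (same-number r between -0.09 and 0.06), and with the replicate block 1, 14 and 9 transcripts were called for C269S against PCDH, IDH1mt against PCDH and C269S against IDH1mt. Over all genes the block gave 111 higher and 61 lower, 1043 and 944, and 276 and 329 calls. Library size alone moved the median of all genes to -0.06 in IDH1mt against PCDH, with 918 higher and 1691 lower calls.

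Scaled to the mitochondrial total, directions turned for 9 of the 25 tested transcripts in IDH1mt against PCDH, 10 in C269S against IDH1mt and 7 in C269S against PCDH. MT-TN (-0.122 in IDH1mt against PCDH) is 1 of 13 that were called in no fit. Among those called in at least 1 fit, the turns were in IDH1mt against PCDH for MT-ND4 (-0.099), MT-CO3 (-0.047), MT-ATP6 (-0.126), MT-RNR1 (-0.246), MT-ND3 (-0.028), MT-TC (-0.062), MT-ATP8 (-0.094) and MT-TY (-0.006), in C269S against IDH1mt for MT-RNR2 (0.062), MT-ND4 (0.066), MT-ATP6 (0.033) and MT-ND1 (0.064), and in C269S against PCDH for MT-ND4L (-0.005). By its construction this scaling removes the shift that the transcripts share. Without 1 library, MT-RNR1 lay between -0.083 and 0.389 in IDH1mt against PCDH, and MT-ND4L between -0.035 and 0.232 in C269S against PCDH. Of the shares whose groups overlapped, in percentage points, the rRNA share lay between -0.749 and 0.143 in IDH1mt against PCDH without 1 library, the tRNA share between -0.0424 and 0.0405 there and between -0.015 and 0.068 in C269S against PCDH, and the minus-strand share between -0.0768 and 0.0396 in C269S against PCDH. Without MT-RNR2 the rRNA share differed by -0.358 in C269S against PCDH. The cause of these turns was not tested.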
